A study of Homo sapiens with 3 samples.

Results

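BP (n-butylidenephthalide) is a phthalide of the medicinal plant Angelica sinensis, and LNCaP cells are an androgen-dependent line from a human prostate cancer. The early response to BP was read from 2 Affymetrix Human Gene 1.0 ST arrays, 1 of LNCaP cells that had received BP (70 µg/ml) 3 h before and 1 of control LNCaP cells. Each difference is the log2 value at 3 h of BP minus the control value. A further array was of cells that had received the same dose 24 h before. It is given beside the early values to follow the same genes and is set against the same control array. It also enters the mean level of each gene. All cells were the same unmodified line, grown in RPMI1640 medium with serum and plated a day before BP was added. For the control array no vehicle or harvest time is labelled, although the series title names DMSO, so a change over 3 h in culture or an effect of the vehicle cannot be told apart from an effect of BP. A transcript cluster is the unit of these arrays and combines the probes that lie along 1 transcript. Of 33297 transcript clusters, 20087 carried exactly 1 gene symbol, and these represented 19208 genes, which are described here. Each condition had 1 array, so no difference has a replicate check and no test was made. Precision is limited by the number of arrays.

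In cells that meet a sudden stress, the first transcripts to change are usually those of short-lived regulators. They include transcription factors such as JUN and ATF3, phosphatases that switch off MAP kinases, and inhibitors that end signals from growth factor receptors. Excess zinc or other metals acts through the factor MTF1, which binds metal response elements in the promoters of metallothioneins and of the zinc exporter SLC30A1. Zinc finger proteins with a KRAB domain form the largest group of human transcription factors, most of them repressors, and many of their genes lie in runs on chromosome 19.

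The response at 3 h leaned towards higher expression. A 2-fold increase over control cells was reached by 66 of 19208 genes (0.344%) and a 2-fold decrease by 9 genes (0.0469%). At a threshold of 1.5-fold the counts were 297 higher (1.55%) and 77 lower (0.401%). At 3-fold they were 21 and 0. Among the 66 were regulators of transcription and signaling, 5 genes of the metallothionein cluster in 16q13, and 11 zinc finger genes, of which 8 were annotated to 19p13.2 and ZNF20 to 19p13.3-p13.2. The gene nearest above the threshold was DUSP10 at 1.01, and SNORA50 at 0.99 was just below it. On the lower side LOC732275 at -1.02 was just past the threshold and ABCD3 at -0.97 just short of it.

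**Figure D1:**
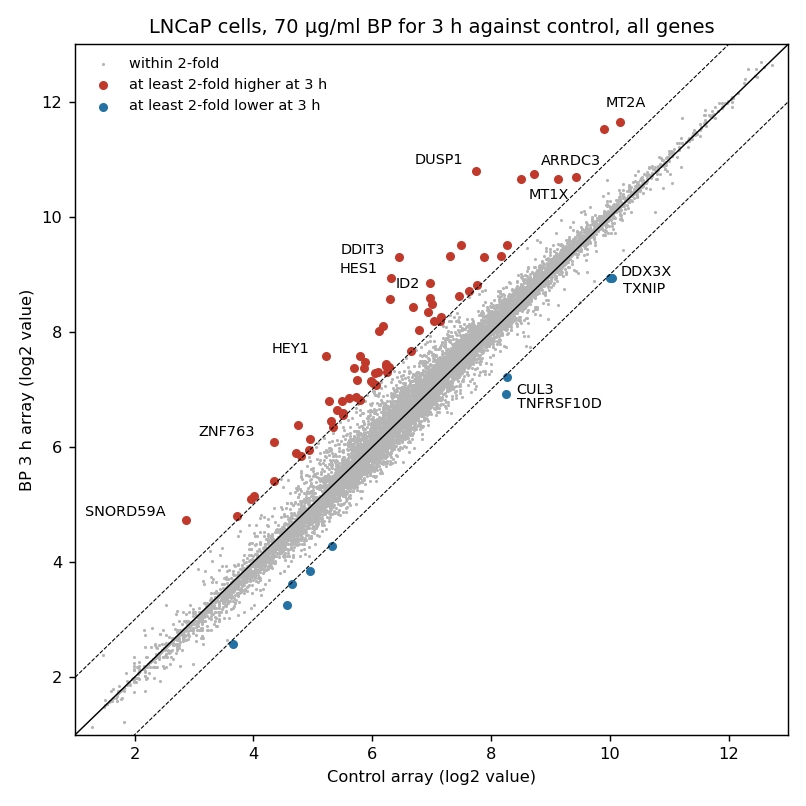
Log2 value of each of 19208 genes on the BP 3 h array (vertical axis) against the control array (horizontal axis), with a solid line of equal values and dashed lines at 2-fold. The 66 genes at least 2-fold higher (red) spread over control values from 2.87 (SNORD59A) to 10.16 (MT2A), whereas the 9 lower genes (blue) fall into a group at low values and a group of DDX3X, TXNIP, CUL3 and TNFRSF10D at higher values.

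Promoters are printed for 3 sets of early genes. They are the 250 bases before the most upstream RefSeq transcription start, 5′ to 3′ on the gene's own strand (build GRCh38.p14). Of the 66 genes, 49 had a promoter in the table used, as had 14044 of the 19208 genes. In the first set, the metal response element (TGCACNC or TGCGCNC, on either strand) is in capitals.
MT2A (chr16:56608334-56608583, plus strand): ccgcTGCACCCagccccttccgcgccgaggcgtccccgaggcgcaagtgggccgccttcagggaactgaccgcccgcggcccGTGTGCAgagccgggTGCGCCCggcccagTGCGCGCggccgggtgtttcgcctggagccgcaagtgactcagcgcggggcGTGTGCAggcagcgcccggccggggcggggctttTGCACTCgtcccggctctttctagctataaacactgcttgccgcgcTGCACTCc
MT1X (chr16:56682220-56682469, plus strand): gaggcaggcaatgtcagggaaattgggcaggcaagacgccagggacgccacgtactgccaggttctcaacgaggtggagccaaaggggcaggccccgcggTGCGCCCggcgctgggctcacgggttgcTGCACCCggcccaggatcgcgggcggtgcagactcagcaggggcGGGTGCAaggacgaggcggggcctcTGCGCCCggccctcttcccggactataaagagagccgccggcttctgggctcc
SLC30A1 (chr1:211579162-211579411, minus strand): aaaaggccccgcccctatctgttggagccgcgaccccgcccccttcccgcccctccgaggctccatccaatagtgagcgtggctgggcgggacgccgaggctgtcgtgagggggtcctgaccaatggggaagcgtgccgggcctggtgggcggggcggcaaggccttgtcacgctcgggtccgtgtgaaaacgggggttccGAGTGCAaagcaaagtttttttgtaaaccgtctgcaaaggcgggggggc

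The metal response element was found 7 times before MT2A, 4 times before MT1X and 1 time before SLC30A1. It was present before 15 of the 49 genes (30.6%), against 24.7% of 27305 promoters of this length and 29.8% of those of array genes. The share among the 49 genes was thus close to that of array genes. MT2A and MT1X held several copies each, and ARRDC3, GADD45G and ZNF701, which are not printed, held 2 each. How often promoters in general hold several copies was not counted. In the second set, the cAMP response element (TGACGTCA) is in capitals.
DUSP1 (chr5:172771196-172771445, minus strand): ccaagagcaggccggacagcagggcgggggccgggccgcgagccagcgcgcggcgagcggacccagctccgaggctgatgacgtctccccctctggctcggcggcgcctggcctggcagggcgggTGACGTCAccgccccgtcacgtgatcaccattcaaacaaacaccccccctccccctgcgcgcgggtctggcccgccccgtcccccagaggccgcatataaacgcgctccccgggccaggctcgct
SKIL (chr3:170357465-170357714, plus strand): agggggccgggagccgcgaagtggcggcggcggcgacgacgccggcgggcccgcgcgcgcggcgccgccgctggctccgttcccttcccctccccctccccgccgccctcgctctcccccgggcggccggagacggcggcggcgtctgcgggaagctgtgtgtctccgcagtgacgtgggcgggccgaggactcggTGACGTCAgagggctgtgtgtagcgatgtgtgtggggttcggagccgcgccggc

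This element was found before 4 of the 49 genes (DUSP1, SKIL, HIST1H2AJ and ZNF10), or 8.16%, against 1.75% of all promoters and 2.35% of those of array genes. Among genes at least 1.5-fold higher it was found before 10 of 216 with a promoter (4.63%). In the third set, from the zinc finger genes of 19p13.2, the CCAAT box (CCAAT) is in capitals.
ZNF844 (chr19:12064481-12064730, plus strand): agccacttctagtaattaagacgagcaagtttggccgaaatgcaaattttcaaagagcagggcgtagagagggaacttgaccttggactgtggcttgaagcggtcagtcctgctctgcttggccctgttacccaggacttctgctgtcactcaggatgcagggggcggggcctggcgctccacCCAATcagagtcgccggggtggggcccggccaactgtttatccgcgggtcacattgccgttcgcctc
ZNF700 (chr19:11924857-11925106, plus strand): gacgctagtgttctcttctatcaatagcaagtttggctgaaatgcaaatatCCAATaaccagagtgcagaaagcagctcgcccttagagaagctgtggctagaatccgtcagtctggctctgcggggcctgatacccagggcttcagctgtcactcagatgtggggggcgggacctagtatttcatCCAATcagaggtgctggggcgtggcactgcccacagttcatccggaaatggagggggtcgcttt
ZNF433 (chr19:12035680-12035929, minus strand): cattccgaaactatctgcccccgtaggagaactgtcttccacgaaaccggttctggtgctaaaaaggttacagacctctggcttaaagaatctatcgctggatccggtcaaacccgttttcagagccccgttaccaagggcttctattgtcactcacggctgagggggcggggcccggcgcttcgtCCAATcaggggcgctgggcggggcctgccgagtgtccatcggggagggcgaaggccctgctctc

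Each of these 3 promoters has a CCAAT box close to the start, at -67 in ZNF844 and at -64 in ZNF700 and ZNF433 (first base, with -1 just before the start), and ZNF700 has a further one at -199. A CCAAT box was found before 34 of the 49 genes (69.4%), and without the ZNF genes before 25 of 39. It was found before 48.1% of the 216 genes with a promoter that were at least 1.5-fold higher. The shares were 33.0% of all promoters and 34.5% of those of array genes. The other motifs searched were the AP-1 site TGACTCA (2 of 49 genes, or 4.08%, against 4.15% of all promoters and 3.00% of those of array genes), the RBPJ site GTGGGAA (1 of 49, against 5.48% and 5.15%), the E-box CACGTG (7 of 49, against 6.46% and 7.90%) and the heat shock element GAANNTTC or TTCNNGAA (6 of 49, against 11.7% and 9.76%). Both strands were searched and overlapping matches were each counted. A match describes these letters only, and binding was not measured.

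Many genes of a run of zinc finger genes on chromosome 19 were higher. In the order of RefSeq genes, 24 protein-coding ZNF genes follow each other between ACP5 and MAN2B1, and 22 of them were measured with a cluster of their own. Of these, 9 were at least 2-fold higher at 3 h (40.9%, against 0.344% of all genes), 11 were at least 1.5-fold higher, 3 had exactly the control value and 0 were lower. The median difference of the run was 0.54 on the log2 scale, against 0.00 over all genes. Among the 10 protein-coding genes on either side of the run, 19 were measured, with differences between -0.38 and 0.16 and a median of 0.00. The weakest members of the run lay within that range as well. ZNF558, in 19p13.2 outside the run, was 1.55-fold higher.

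ZNF844 had a log2 value of 8.10 at 3 h, against 6.18 in control cells, a 3.77-fold difference and the largest of the run. ZNF763 had 6.09 at 3 h and 4.35 in control cells (3.35-fold). The other members past 2-fold differed less than these. ZNF441 had 6.65 at 3 h, against 5.40 in control cells (2.37-fold). ZNF433 had 7.28 at 3 h, against 6.04 in control cells (2.35-fold). ZNF20 was 2.29-fold higher, ZNF700 2.25-fold, ZNF564 2.23-fold, ZNF627 2.07-fold and ZNF442 2.05-fold. The genes between them did not all differ to the same degree. ZNF563 and ZNF44 were higher by 0.63 and 0.59, ZNF136 by 0.22 and ZNF440 by 0.16, and ZNF491, ZNF439 and ZNF69 had the same value on both arrays (4.39, 4.87 and 5.58). The run itself and its members under 2-fold were chosen for description after their values were seen. The run lies on both strands, with ZNF844 and ZNF700 on the plus strand and ZNF433 and ZNF442 on the minus strand. The genes are close paralogs, and reading of one transcript by the probes of another was not tested.

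**Figure D2:**
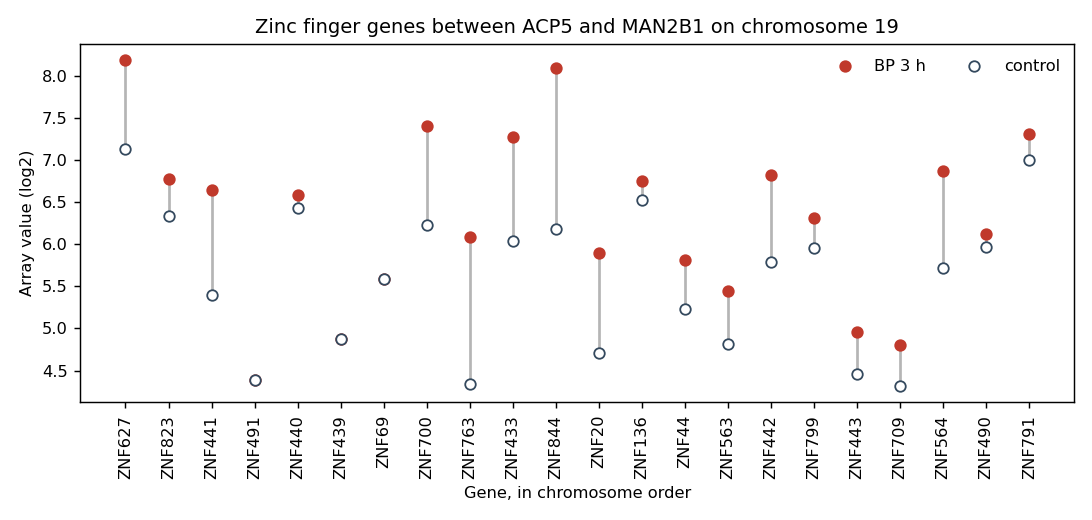
Log2 array values at 3 h of BP (filled red) and in control cells (open) for the 22 measured zinc finger genes between ACP5 and MAN2B1, placed in chromosome order on the horizontal axis. The red point lies above the open one in 19 genes and on it in ZNF491, ZNF439 and ZNF69, and the longest steps are those of ZNF844 (1.92) and ZNF763 (1.75).

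The zinc finger genes elsewhere differed less. Over all 486 ZNF genes, the run included, the median difference at 3 h was 0.08. Of these, 11 were at least 2-fold higher, 44 at least 1.5-fold higher (9.05%, against 1.55% of all genes) and 1 lower by as much. In 19p13.2, with ZNF genes annotated to 19p13.3-p13.2 counted there, the median was 0.40 over 38 ZNF genes, with 0 below control. In other bands of chromosome 19 it was 0.14 over 186 and on other chromosomes 0.01 over 262. At least 1.5-fold higher were 17 of the 186 (9.14%) and 13 of the 262 (4.96%), both above the share of all genes. The 110 genes of 19p13.2 that are not ZNF genes had a median of 0.00, and the 1 of them past 2-fold was DNAJB1. The band 19p12, on the same arm but not next to 19p13.2, had 21 ZNF genes with a median of 0.33. Of these, 17 were above control, 4 had the control value and 0 were below it, and ZNF431 was highest at 0.97. The 2 remaining ZNF genes past 2-fold were ZNF701 in 19q13.41, which was higher by 1.24, and ZNF10 in 12q24.33, a KRAB repressor, which was higher by 1.19. A CCAAT box lay before 20 of the 21 genes of the run with a promoter in the table, and before 166 of 379 other ZNF genes (43.8%). As nearly all of the run held it, members with the control value held it as well. At 24 h the run had a median of 0.22, and ZNF844 was the 1 gene at least 2-fold higher (1.53). Of its 19 genes above control at 3 h, 18 had a lower value at 24 h than at 3 h. The run was chosen by its values at 3 h, and whether these lower values follow from that choice was not tested.

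Genes of metal handling formed the next group. Metallothioneins are small proteins that bind zinc and copper. Of 13 listed genes, which include their activator MTF1, 4 were at least 2-fold higher, 6 at least 1.5-fold higher and 0 lower by as much, with a median of 0.38 against 0.00 over all genes. Without the genes at exactly the control value this median was 0.82, and the mean of the list was 0.72. MT1X had a log2 value of 10.66 at 3 h, against 8.51 in control cells (4.44-fold). MT1F had 9.50 at 3 h, against 7.50 in control cells (4.02-fold). MT1G had 11.52 at 3 h, against 9.90 in control cells (3.08-fold). MT2A, the most abundant isoform in many cells, had 11.65 at 3 h, against 10.16 in control cells (2.81-fold), and its 3 transcript clusters gave differences of 1.49, 1.48 and 1.48. These 4 genes were already among the brighter transcripts in control cells. The pseudogene MT1DP was 2.14-fold higher, MT1L 1.96-fold and MT1B 1.60-fold. MT1A and MT1E had the same value on both arrays, the brain form MT3 differed by -0.22, and MTF1 was at 7.86 on both. Metallothionein genes are near-identical in sequence, so the share of each single gene is uncertain.

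Among 24 zinc transporters, 1 passed 2-fold and 2 passed 1.5-fold upwards, with a median of 0.00. SLC30A1, which exports zinc through the plasma membrane, had 8.85 at 3 h, against 6.97 in control cells (3.69-fold). SLC30A10, an exporter of manganese, had 6.21 at 3 h, against 5.56 in control cells (1.57-fold). None of the 14 listed SLC39 genes, zinc importers for the most part, differed by 1.5-fold, with differences between -0.12 and 0.13. Past 1.5-fold the transporters were thus SLC30A1 and SLC30A10 only, and of these SLC30A1 alone is the zinc exporter. At 24 h MT1X had come down to 9.21 and SLC30A1 to 7.53, while MT1G was at 11.49, close to its value at 3 h.

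Among the 21 genes at least 3-fold higher were 3 repressors of the basic helix-loop-helix type. HES1, a target of Notch, had 8.93 at 3 h, against 6.31 in control cells (6.18-fold). HEY1, a related repressor, had 7.57 at 3 h, against 5.23 in control cells (5.10-fold). BHLHB2 (now BHLHE40), a repressor that also acts in the circadian clock, had 8.59 at 3 h, against 6.97 in control cells (3.09-fold). The other 9 of the 12 genes on the list of HES and HEY repressors and their relatives differed by less than 1.5-fold, and NRARP, a Notch target, HEYL, HES4 and HES5 were lowest at -0.45, -0.39, -0.30 and -0.22. Among 11 Notch receptors, ligands and cofactors 0 differed by 1.5-fold, with NOTCH3 at -0.28 and DLL4 at 0.17. Of 13 clock genes 0 differed by 1.5-fold.

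The ID proteins, which bind helix-loop-helix factors and keep them from DNA, were higher as a family. Of 4 members, 3 were at least 2-fold higher, and the median was 1.46. ID2 had 8.57 at 3 h, against 6.29 in control cells (4.84-fold). ID3 had 8.44 at 3 h, against 6.68 in control cells (3.39-fold). ID1 had 8.20 at 3 h, against 7.03 in control cells (2.24-fold). ID4 had 6.02 at 3 h, against 5.70 in control cells. ID genes are classical targets of BMP signaling, and a few feedback inhibitors of TGF-β and BMP signaling were also higher. Of 20 genes of TGF-β and BMP feedback, 3 were at least 2-fold higher, 4 at least 1.5-fold higher and 0 lower by 1.5-fold, while 6 were above control and 10 below it, with a median of -0.01 and a mean of 0.22. SKIL, a corepressor of SMAD proteins, was 3.73-fold higher, with 8.02 at 3 h and 6.12 in control cells. The inhibitory SMAD7 was 3.19-fold higher, with 7.36 at 3 h and 5.69 in control cells. The decoy receptor BAMBI was 2.12-fold higher and SMAD6, the inhibitory SMAD of BMP signaling, 1.73-fold higher. The ligands TGFB1, BMP2 and BMP4 differed by -0.22, -0.33 and 0.00. Other listed inhibitors were not higher, with PMEPA1 at -0.41, GREM1 at -0.30, SKI at -0.12, TGIF2 at -0.05, TGIF1 at -0.04 and SMURF2 at -0.02. Genes of these pathways outside the list, named after their values were seen, went both ways. SMAD1, the receptor BMPR1B and SMAD9 differed by 0.91, 0.68 and 0.65, and BMP8B and FST by -0.69 and -0.65.

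Immediate early genes were split. DUSP1, the phosphatase that inactivates JNK and p38, had the largest difference of the 19208 genes, with 10.79 at 3 h, against 7.74 in control cells (8.30-fold). DUSP10, which acts on the same kinases, was 2.01-fold higher, with 6.35 at 3 h and 5.34 in control cells. DUSP7, a phosphatase of ERK, was 1.62-fold lower, with 7.27 at 3 h and 7.97 in control cells. The other 7 of the 10 listed MAP kinase phosphatases lay within 1.5-fold, and so did all 21 listed JNK, p38 and ERK pathway kinases. MAP3K13, a kinase of the JNK pathway that is not on this list, was higher by 0.99. Of the AP-1 subunits, JUN was 4.05-fold higher (9.32 at 3 h, against 7.30 in control cells) and JUND 1.55-fold. The FOS family was mixed, with FOS at 6.26 at 3 h against 5.91 in control cells, FOSL1 at 6.06 against 6.30, and FOSB 1.56-fold lower at 4.86 against 5.50. Among 17 EGR, NR4A and IER genes, which are usually induced within the first hour of a stimulus, 0 were 1.5-fold higher and EGR4 was 1.51-fold lower, with a median of -0.09. EGR1 had 5.97 at 3 h and 6.16 in control cells, and IER2 had 7.69 and 7.66 in the same order.

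Of the Kruppel-like factors, KLF4 was 3.03-fold higher (7.47 at 3 h, against 5.87 in control cells), KLF6 1.88-fold and KLF3 1.62-fold, and the other 11 of 14 were within 1.5-fold. ELF3, an epithelial ETS factor, was 2.83-fold higher and NFIL3, a bZIP repressor, 2.37-fold higher. Further early regulators were CYR61 (now CCN1), a matrix protein and YAP target, at 2.32-fold, and RGS2, which shortens signals of G proteins, at 2.02-fold. SNF1LK (now SIK1), a kinase that restrains cAMP-driven transcription, was 2.81-fold higher, with 8.49 at 3 h and 7.00 in control cells. ARRDC3, an arrestin that takes receptors from the cell surface, had 10.75 at 3 h, against 8.72 in control cells (4.07-fold). The ERBB pathway had a ligand on each side, HBEGF at 1.80-fold higher and EREG at 1.54-fold lower, and its feedback inhibitor ERRFI1 was 1.78-fold higher.

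**Figure D3:**
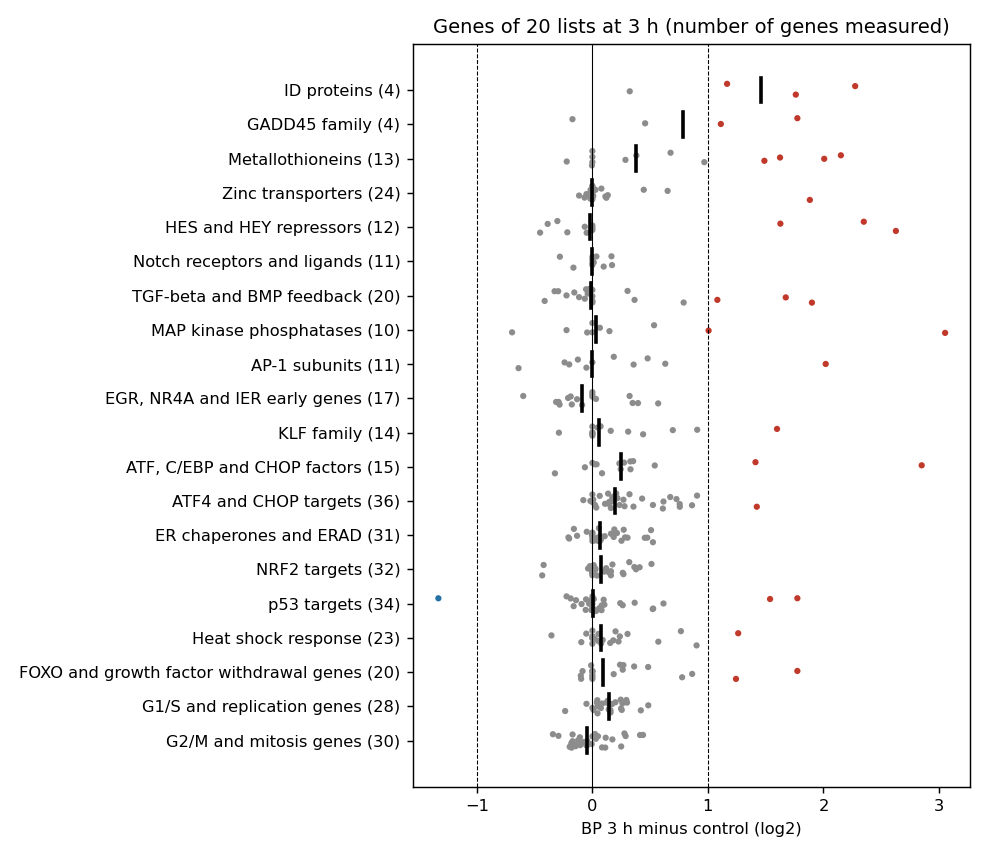
Difference between BP 3 h and control on the log2 scale (horizontal axis) for each measured gene of 20 lists, with the number of genes in parentheses, list medians as black bars and dashed lines at 2-fold. Red points are genes at least 2-fold higher and the blue point is TNFRSF10D, and the median lies above 0.3 only for the ID proteins (1.46), the GADD45 family (0.78) and the metallothioneins (0.38).

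Genes of the stress response driven by ATF4 and CHOP were higher as a group, but most by less than 2-fold. Of 36 listed targets, 33 were above control and 2 below it, against 5996 and 5309 of all 19208 genes. These all-gene counts are not a like background. Of the targets, 35 lay above the median level, where fewer genes had exactly the control value. The 75th percentile over clusters was also higher at 3 h, at 7.19 against 7.11 in control cells. In this list 27 lay within 1.5-fold, 9 were at least 1.5-fold higher and 0 lower by as much, and the median was 0.20 against 0.00 over all genes. Only DDIT4, an inhibitor of mTORC1, passed 2-fold, at 2.68-fold. CHAC1, which degrades glutathione, was 1.87-fold higher, the growth factor VEGFA 1.82-fold, the pseudokinase TRIB3 1.69-fold, CTH, an enzyme of cysteine synthesis, 1.69-fold, the hormone STC2 1.66-fold, the transporter subunit SLC3A2 1.60-fold, and SESN2 and PPP1R15A both 1.53-fold. Other genes for amino acid synthesis on the same list differed less than CTH, with CBS at 0.22, PSAT1 at 0.19, GPT2 at 0.18, SHMT2 at 0.16, PSPH at 0.03, PHGDH at 0.02 and ASNS at 0.00. Among the factors upstream, DDIT3, which encodes CHOP, had 9.29 at 3 h, against 6.44 in control cells (7.21-fold). ATF3 had 7.16 at 3 h, against 5.75 in control cells (2.66-fold). ATF4 itself, whose activity is set mostly by translation, had 7.41 at 3 h, against 7.32 in control cells.

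No listed gene of the ER branch passed 1.5-fold at this time, though more lay above control than below it. Of 31 ER chaperones and degradation factors 0 differed by 1.5-fold, with a median of 0.07, 21 above control and 6 below it. Of 9 ER stress sensors 0 differed by 1.5-fold, with a median of 0.13, 6 above control and 1 below it. Most of these genes (30 of 31 and 8 of 9) also lay above the median level. HSPA5, the chaperone BiP, had 10.73 at 3 h, against 10.42 in control cells (1.23-fold). The sensors ERN1 and ATF6 had differences of 0.24 and 0.33, and XBP1 had 0.54. The largest in the chaperone list were those of HERPUD1 (0.52) and ERO1LB (0.51). CANX differed by 0.07, P4HB by 0.11 and ERO1L by -0.02.

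In the GADD45 family of stress sensors, GADD45A had 7.57 at 3 h, against 5.80 in control cells (3.42-fold), GADD45G had 7.39 against 6.27 (2.16-fold), and GADD45B differed by 0.46. Most p53 targets were near control. Of 34, 30 lay within 1.5-fold, 2 were at least 2-fold higher, namely GADD45A and GDF15, 1 was at least 2-fold lower, namely TNFRSF10D, and the median was 0.00. GDF15, a secreted stress cytokine, had 10.66 at 3 h, against 9.12 in control cells (2.90-fold), while CDKN1A, the p21 gene, had 7.42 against 7.05 and MDM2 had 8.83 against 8.84. NRF2 targets had 0 of 32 past 1.5-fold, and AKR1C2 and AKR1B10 differed most, by 0.51 and -0.43.

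In the heat shock response, DNAJB1, a cochaperone of HSP70, had 10.68 at 3 h, against 9.42 in control cells (2.40-fold). DNAJB4 was 1.87-fold higher and the small heat shock protein CRYAB 1.70-fold, while the other 20 of 23 genes were within 1.5-fold, HSPA8 and HSP90AB1 among them at -0.05 and 0.02. Genes that FOXO factors or loss of growth factors induce included CCNG2, a cyclin of quiescent cells, at 2.37-fold (9.51 at 3 h, against 8.27 in control cells), CDKN1B, the p27 gene, at 1.82-fold, and RICTOR, a subunit of mTORC2, at 1.71-fold. With GADD45A these were 4 of 20 past 1.5-fold, with a median of 0.09 and a mean of 0.31. BMF, a BH3-only member of the BCL2 family, was 2.03-fold higher and was the 1 of 18 family members past 1.5-fold. GABARAPL1 and MAP1LC3B, which coat autophagosomes, were 1.91-fold and 1.57-fold higher, and SAT1, which acetylates polyamines, was 1.68-fold higher.

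In the lists of DNA replication and mitosis 0 genes differed by 1.5-fold at 3 h. Outside these lists the kinetochore and centromere genes MIS12, CENPH and CENPC1, named after their values were seen, were higher by 0.63, 0.60 and 0.58. Of 28 genes of DNA replication, 25 were above control and 2 below it (5996 and 5309 of all 19208 genes). The median was 0.14, with DTL highest at 0.48 and POLE2 at 0.42. Of the 28 genes, 25 lay above the median level, where ties with control were fewer, so the all-gene counts are not a like background. The 75th percentile over clusters was 7.19 at 3 h and 7.11 in control cells, and whether this offset made the replication median was not tested. Of 30 mitosis genes, 12 were above and 17 below, with a median of -0.05. CCND1 had 8.73 at 3 h, against 8.97 in control cells, CDK2 had 8.43 against 8.23, and CDKN2A had 6.76 against 6.80. On the array of 24 h the medians of the replication and mitosis lists were -1.80 and -2.12. Of 29 androgen-responsive genes, 1 was past 1.5-fold, the feedback inhibitor ERRFI1, and the kallikrein KLK3 (PSA) had 10.05 at 3 h, against 10.16 in control cells. In the death receptor and caspase list, TNFRSF10D was the 1 of 29 genes past 1.5-fold, while CASP4 differed by 0.55, CASP8 by 0.38, PARP4 by 0.27, FAS by 0.03, and the kinase MAP3K5 and the BCL2 family member BAX by 0.11 and -0.19.

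Several genes of the 66 belong to none of the lists. RNF144B, a ubiquitin ligase and p53 target, was 2.65-fold higher, C5orf41 (now CREBRF), a regulator of CREB3, 2.47-fold, PPP1R3B, which directs a phosphatase to glycogen, 2.30-fold, and JMJD1C, a histone demethylase family member, 2.23-fold. DIXDC1, which acts in Wnt signaling, was 2.21-fold higher, HEG1, an adhesion receptor of endothelium, 2.13-fold, ACAD11, a fatty acid dehydrogenase, 2.07-fold, TUFT1 2.07-fold and PIGA, the first enzyme of GPI anchor synthesis, 2.07-fold. HSD17B7P2, a pseudogene, was 2.25-fold higher and C21orf34 (now MIR99AHG), a host gene of microRNAs, 2.02-fold. Small RNAs were also present, with SNORD59A at 3.64-fold higher (4.74 at 3 h, against 2.87 in control cells), SCARNA9 at 2.24-fold and LOC85391 (now SNORD14E) at 2.13-fold. Of 147 genes with SNORA, SNORD or SCARNA symbols, 12 were at least 1.5-fold higher (8.16%, against 1.55% of all genes) and 1 lower. Their median was 0.00, and 74 of them had exactly the control value. The olfactory receptor genes OR2W6P and OR2B6 were 2.87-fold and 2.21-fold higher, while 370 of 372 olfactory receptor genes lay within 1.5-fold. The remaining members were the histone gene HIST1H2AJ at 2.06-fold, IMPA1P at 2.22-fold, LOC390345 at 2.11-fold, LOC644714 at 3.08-fold and METT5D1 at 2.09-fold. These values are those of the brightest cluster, and LOC644714 had further clusters at 1.20, 0.92 and 0.00, while METT5D1 had another at 0.00.

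The 9 lower genes had no common list. DDX3X, an RNA helicase that acts in translation, had 8.94 at 3 h, against 10.00 in control cells (2.07-fold lower). CUL3, the scaffold of a ubiquitin ligase that holds NRF2 low, had 7.21 at 3 h, against 8.27 in control cells (2.08-fold lower). TXNIP, an arrestin that inhibits thioredoxin and glucose uptake, had 8.93 at 3 h, against 10.03 in control cells (2.15-fold lower), so TXNIP and its relative ARRDC3 lay on opposite sides of control. TNFRSF10D, a decoy receptor of TRAIL, had 6.92 at 3 h, against 8.26 in control cells (2.52-fold lower). The other 5 (LOC728380, LCN1L1, FLJ37673, LOC653163 and LOC732275) lay at log2 values of 2.59 to 4.28 at 3 h and 3.65 to 5.32 in control cells, which is below the median of 6.06 over genes. These 5 genes were thus dim on both arrays.

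Of the 77 genes at least 1.5-fold lower, 30 had a mean level above the median of all genes. Of these 30, 23 were within 1.5-fold of control at 24 h, when 4.49% of all genes were at least 1.5-fold higher and 4.04% lower. The 30 were picked by a low value on 1 array, so a passing change cannot be told apart from the spread of that array. Besides DDX3X (10.03 at 24 h) and CUL3 (8.19), the 23 included further genes that were chosen after their values were seen. One was POLR2B, a core subunit of RNA polymerase II, with 9.43 at 3 h and 10.22 in control cells. The ribosome rescue factor HBS1L had 7.76 at 3 h and 8.58 in control cells, and ABCE1, which recycles ribosomes, had 8.22 and 8.95 in the same order. The splicing factor SFRS10 (now TRA2B) had 8.88 at 3 h and 9.73 in control cells, the peroxisomal transporter ABCD3 8.52 and 9.49, and WRB (now GET1), a receptor for tail-anchored proteins, 7.74 and 8.65. Several of these genes serve RNA and protein synthesis, for which no list was counted. In bulk RNA, fewer cells of a type and less RNA per cell cannot be told apart.

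**Figure D4:**
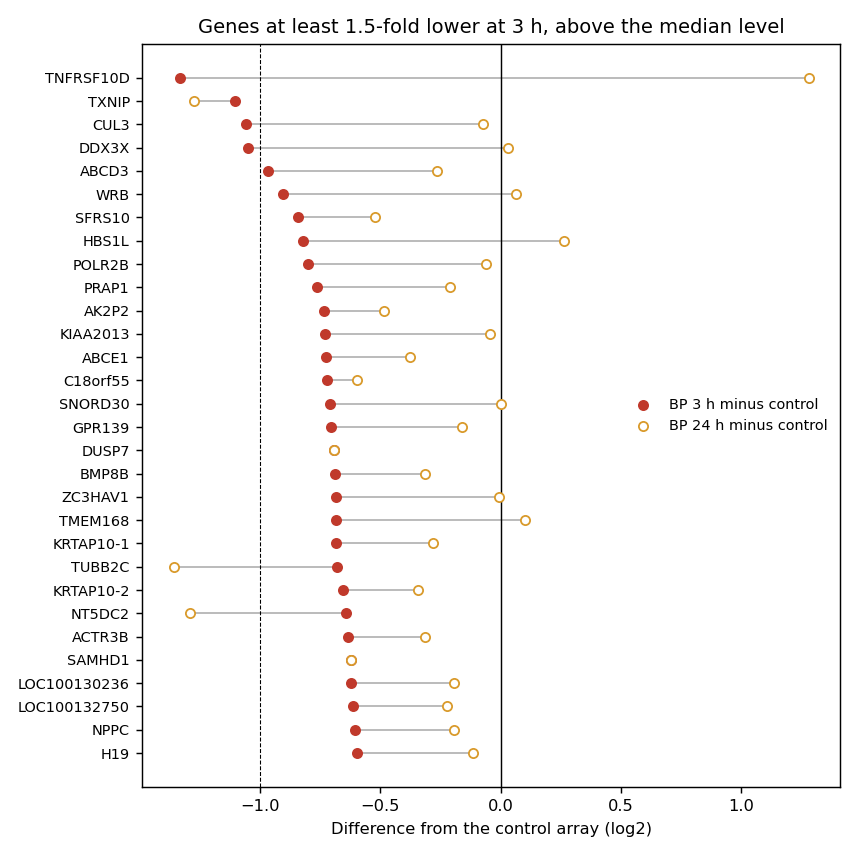
Difference from the control array on the log2 scale (horizontal axis) at 3 h (filled) and 24 h of BP (open) for the 30 genes at least 1.5-fold lower at 3 h with a mean level above the median of all genes. Most open points lie nearer to 0 than the filled ones, as for DDX3X and CUL3, while TXNIP, TUBB2C and NT5DC2 lie lower at 24 h and TNFRSF10D lies on the other side of 0.

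The 24 h array, which shares its control with the early comparison, gives a later value for the 66 higher genes. These were picked by a high value on the single 3 h array. A lower value on another array may follow from that choice, which was not tested. The median of these genes was 1.24 at 3 h and 0.94 at 24 h, 50 had a lower value at 24 h than at 3 h and 16 a higher one. Against control (at 24 h 4.49% of all genes were at least 1.5-fold higher and 4.04% lower, and 1.53% and 2.11% by 2-fold), 19 were between 1.5-fold and 2-fold higher at 24 h, 16 were within 1.5-fold, 1, HIST1H2AJ, was at least 2-fold lower and the other 30 were past 2-fold as before. Besides HIST1H2AJ, 9 genes had a value at 24 h at least 2-fold below that at 3 h, namely OR2W6P, HES1, BHLHB2, MT1X, SLC30A1, ZNF763, SNF1LK, SNORD59A and ARRDC3. BHLHB2 was close to control again at 24 h, with a log2 value of 6.97 without BP, 8.59 at 3 h and 7.13 at 24 h. The kinase SNF1LK followed the same course, with 7.00, 8.49 and 7.29, and so did the zinc exporter SLC30A1, with 6.97, 8.85 and 7.53. In contrast, HEG1 had 5.50 without BP, 6.59 at 3 h and 8.10 at 24 h and was the 1 gene that gained a further 2-fold. PIGA had 6.24, 7.29 and 8.27, RNF144B 6.94, 8.35 and 9.08, and NFIL3 6.78, 8.02 and 8.47 in the same order.

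**Figure D5:**
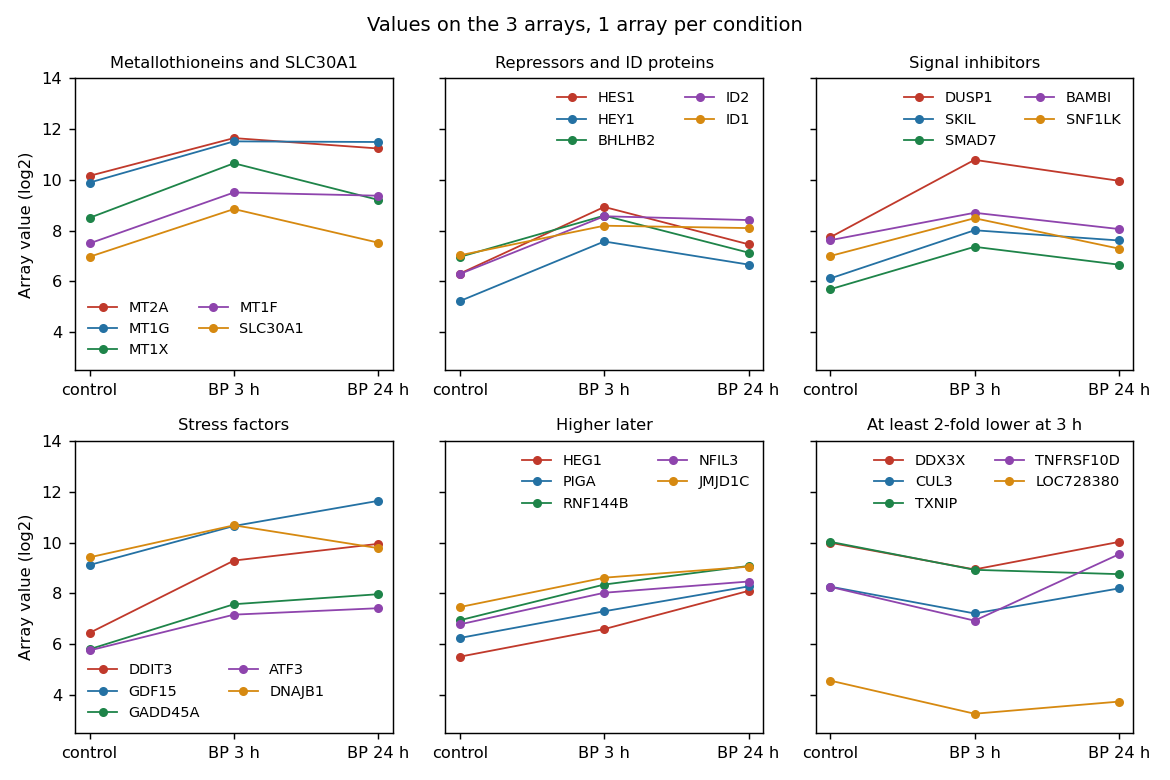
Log2 values of 30 genes on the control, BP 3 h and BP 24 h arrays (horizontal axis), 1 array per condition, in panels by gene group, with lines joining the 3 values of a gene. HES1, BHLHB2, MT1X, SLC30A1 and SNF1LK peak at 3 h, HEG1 and PIGA climb to 24 h, and DDX3X and CUL3 dip at 3 h only.

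The levels of different probes cannot be set against each other, so each marker is compared only with itself. The 10 measured LNCaP and luminal prostate markers had log2 values between 8.26 (KLK2) and 10.46 (KRT8) at 3 h and between 8.31 and 10.41 in control cells, and 0 of them differed by 1.5-fold, SLC45A3 being lowest at -0.57. Markers of PC-3, DU-145, basal or mesenchymal cells lay between 3.35 and 6.53 at 3 h, neuroendocrine markers between 4.37 and 6.84, and markers of fibroblasts, endothelium, blood and liver between 2.08 and 6.86, again with 0 past 1.5-fold. A property of the deposited values bears on every list. At 3 h, 7903 genes had exactly the control value, 70.5% of the 4825 genes with the lowest levels and 19.1% of the 4802 with the highest, so a difference of 0.00 may not be a measured equality. Medians over the 33297 clusters were 5.46 at 3 h and 5.48 in control cells, and the 75th percentiles were 7.19 and 7.11.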

How the data were processed

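The 3 arrays were Affymetrix Human Gene 1.0 ST arrays of LNCaP cells, 1 for each condition. The deposited values used here are log2 expression values, 1 per transcript cluster, in the series' value table. Expression Console (Affymetrix) and RMA are listed in the submitters' processing notes, whereas the methods describe MAS5.0 and GeneSpring scaling to the 50th percentile of each chip, and the sources do not settle which made the values. Signal over background is not given there. The deposited tables that give the gene symbols also hold the authors' own ratios and fold changes between arrays, which were not used.

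Differences were the log2 value of BP-treated cells minus that of control cells. Of genes with several transcript clusters (627), the cluster with the highest mean was used. Genes at least 2-fold different were named, with members of 45 lists past 1.5-fold (or the 2 that differed most where fewer were past it), markers, the genes the study followed and genes past 1.5-fold in opposite directions at 3 h and 24 h. Genes named outside this rule, the zinc finger run, the gene families and the motifs were chosen after their values were seen. The members and lists were chosen with earlier results of these data known. Symbols were matched to RefSeq GRCh38.p14 (18063 of 19208 genes) for current names, gene order and promoters. Alternatives were other scalings, thresholds, cluster rules and filters. Scripts ran in Python 3.11.15 (pandas 2.3.3, numpy 2.4.6, matplotlib 3.10.9) and were tested on simulated data.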

Additional observations from a re-analysis of the deposited data

Results flagged for a closer look

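Of the genes past 1.5-fold at 3 h, 11 were past 1.5-fold in the other direction at 24 h. Of the 297 genes higher at 3 h, 10 were at least 1.5-fold lower at 24 h, when 4.04% of all genes were, and 1 of the 77 lower genes was higher, when 4.49% of all genes were, so reversals were not more common among them. Each value rests on 1 array, both comparisons share the control array, and the difference between the times was not tested. TNFRSF10D, the decoy receptor of TRAIL, was the 1 gene that was lower at 3 h (-1.33) and higher at 24 h (1.28). The other 10 were higher at 3 h and lower at 24 h. The histone gene HIST1H2AJ differed by 1.04 at 3 h and by -2.50 at 24 h, and HIST1H2BJ by 0.64 and -0.79. CENPH, a kinetochore protein, had 0.60 and -0.77 in the same order, and C4orf21 (now ZGRF1) had 0.66 and -1.35. C5orf34 had 0.95 and -1.31, SLC16A6, a transporter, had 0.76 and -1.41, and ZNF695 had 0.71 and -0.80. The BMP receptor BMPR1B had 0.68 and -0.83, GLMN had 0.60 and -0.86, and FAM48B1 had 0.66 and -0.61.

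Transcript clusters without a gene symbol, which enter no comparison above, held more differences than the named genes. Of 11306 such clusters, 453 had at least 2 times the control value at 3 h on the linear scale (4.01%) and 102 were lower to the same degree. Of these, 4951 also lacked a description and held 424 of the higher ones (8.56%), with a median log2 value of 5.20 at 3 h and 4.95 in control cells. Clusters with several gene symbols numbered 1904, of which 6 passed 2-fold upwards and 0 downwards. What these clusters measure was not tested.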

How the results depend on the processing

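No replicate could be left out. No paired analysis was possible because each condition had a single array. At a threshold of 1.5-fold, 297 genes were higher and 77 lower at 3 h, and 28 in place of 18 of the 45 lists held a higher gene. At 3-fold, 21 genes were higher and 0 lower. Counted over all transcript clusters, 533 were at least 2-fold higher and 112 lower. Among genes above the median level, 4 were at least 2-fold lower. Under the other scalings the 66 higher genes became 69 (median centring), 54 (75th percentile, which moved the median of all genes by -0.08) and 58 (quantile), and all 9 lower genes were kept in each. The zinc finger run held 9 genes past 2-fold under median centring and 7 under the others. With the mean of a gene's clusters, LOC644714 differed by 0.94 and METT5D1 by 0.53. Of the 45 list medians, 7 moved when the mean took their place, 4 with genes above the median level alone and 2 without genes at the control value. With 1 array a side, the spread between cultures is unknown.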

Other observations

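The lists below held at most 2 genes past 1.5-fold upwards at 3 h, but they are short. Over all genes the share was 1.55%. Among 26 NF-kB and cytokine genes 2 had passed it. NFKBIZ, a nuclear regulator of NF-kB, had a log2 value of 5.44 at 3 h, against 4.46 in control cells. The interferon factor IRF1 had 5.62 at 3 h, against 4.97 in control cells. In control cells both were below the median of 6.05 over genes. NFKBIA, the inhibitor that NF-kB itself induces, had 8.39 at 3 h, against 8.62 in control cells. Among 20 hypoxia and angiogenic factors the peptide hormone ADM was 1.59-fold higher beside VEGFA. Of 9 targets of the aryl hydrocarbon receptor, TIPARP, its feedback inhibitor, was the 1 past 1.5-fold, with 7.03 at 3 h and 6.42 in control cells. BACH1, a repressor of heme oxygenase, was 1.67-fold higher, with 7.58 at 3 h and 6.84 in control cells. No gene of sterol and fatty acid synthesis (23) or of ubiquitin and the proteasome (15) differed by 1.5-fold, with the proteasome subunit PSMD14 at 0.23. The 10 mRNA decay and antiproliferative early genes were within 1.5-fold, and ZFP36, which destabilises short-lived mRNAs, had 6.08 at 3 h, against 6.31 in control cells.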
